A study of Ovis aries with 8 samples.

Results

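The genes described here are 7 transcripts best known from fat, skeletal muscle and liver that were read on arrays of fetal carotid artery: SCD and LEP for fat, MYH1 and MB for skeletal muscle, and ALB, AHSG and TTR for liver. They were taken as every probe of the array, controls aside, that named one of these genes, which gave 7 genes of the 822 named on the array and 12 probes out of 15008. LEP had 3 probes, MB, ALB and AHSG had 2 each, and SCD, MYH1 and TTR had 1 each. The genes were selected on their scaled signals across these same arrays, which earlier results had shown to rise on some arrays and not on others, so the levels across arrays are given as a description, with no test. MYH1 does not occur under that symbol on the array. Its probe carries the older name OMYHC2X, read here as the ovine fast myosin heavy chain of type IIX.

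Total RNA of sheep fetal carotid arteries, collected at gestation day 140, was labelled with Cy3 and hybridised to 8 single-colour Agilent ovine arrays, 1 per fetus. In the hypoxia group (n = 4) the ewes were moved to an elevation of 3801 m at gestation day 30 and stayed there until day 135, while the sample titles give 110 days of hypoxia. In the normoxia group (n = 4) the ewes stayed at 300 m. Both groups were fed alfalfa pellets and carried no genetic change or drug that the labels name. The titles number the fetuses and say no more of them, so a p-value here speaks of the spread among these 8 samples, and the exposure acted on the ewe as a whole.

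Whole arteries are mostly smooth muscle, lined by endothelium and wrapped in connective tissue. SCD and LEP belong to the lipid synthesis and hormone output of adipocytes, MYH1 and MB to the contractile and oxygen-storing proteins of muscle fibres, and ALB, AHSG and TTR to the plasma proteins that hepatocytes secrete. None of the 7 is a standard marker of the vessel wall.

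The labelled tissue was clear from its own genes. On the log2 scale relative to each array's 75th percentile, the light chain MYL6 averaged 8.27 and the smooth muscle calponin CNN1 averaged 7.61 over the 8 arrays, both well above background on all 8. In a bulk sample, fewer cells of a type and less RNA per cell cannot be told apart. The arrays differed in overall brightness. The 75th percentile of the processed signal ran from 96.8 on hypoxia 1 to 1368 on normoxia 3, and the share of probes well above background ran from 59.5% on normoxia 4 to 94.8% on hypoxia 3. Relative levels on dim arrays therefore end at a higher floor: the lowest level well above background was -2.53 on hypoxia 1 and -5.73 on hypoxia 4. The files carry 10 positive control probes named E1A, designed against transcripts of an adenovirus gene that can be added to a labelling reaction, and the protocols in the labels mention no such addition. Their median processed signal was 42.8, 8.06, 189 and 22.8 on normoxia 1 to 4, and 29.9, 4.03, 278 and 4.53 on hypoxia 1 to 4. This E1A median was bright on normoxia 3 and hypoxia 3 and intermediate on normoxia 1, normoxia 4 and hypoxia 1. On normoxia 2, hypoxia 2 and hypoxia 4 it was near the negative controls, whose median ran from 3.40 to 7.35. Even there, 2 of the 10 E1A probes were well above background on each array.

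SCD is the stearoyl-CoA desaturase, which makes monounsaturated fatty acids. Its processed signal, before any scaling, was 71.8, 9.23, 329 and 50.3 on normoxia 1 to 4, and 46.8, 3.65, 446 and 6.05 on hypoxia 1 to 4. It was well above background on 5 arrays (normoxia 1, 3 and 4, hypoxia 1 and 3) and not on normoxia 2, hypoxia 2 and hypoxia 4. Relative to each array's 75th percentile, its log2 level was -0.79, -6.02, -2.05 and -2.96 in normoxia and -1.05, -6.55, -1.46 and -7.16 in hypoxia. SCD stood at the 64.1 percentile of all probes on normoxia 1 and at the 10.1 percentile on hypoxia 2. High and low arrays occurred in both groups.

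LEP encodes leptin, the hormone by which adipocytes report fat stores, and its 3 probes were dim. Probe A_70_P017127 had signals of 19.4, 19.4, 107 and 48.7 in normoxia and 21.6, 9.43, 165 and 11.1 in hypoxia, and was well above background on the same 5 arrays as SCD. Probe A_70_P026616, which the array describes as the 3' UTR of leptin, had signals of 23.0, 21.8, 102 and 22.4 in normoxia and 17.5, 17.2, 64.7 and 33.4 in hypoxia. It was well above background on 5 arrays, of which hypoxia 4 was one and normoxia 4 was not. The third probe, A_70_P017126, was well above background on normoxia 1, normoxia 3 and hypoxia 3 only. Ranked within each array, which scaling by 1 factor per array cannot alter, A_70_P026616 stayed between the 14.4 and the 36.7 percentile, with its lowest rank on hypoxia 3, the array with the brightest controls. A_70_P017127 stayed between the 26.5 and the 48.3 percentile and was at the 30.8 percentile on hypoxia 3. A_70_P017126 ran from the 10.1 percentile, on an array where it was not above background, to the 37.0 percentile on hypoxia 3. The LEP probes thus differed in where hypoxia 3 ranked.

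MYH1 is the motor protein of the fastest fibres of sheep muscle. Its probe had signals of 54.4, 12.9, 281 and 46.7 in normoxia and 47.8, 7.04, 273 and 3.46 in hypoxia. It was well above background on the same 5 arrays as SCD, and its rank ran from the 60.4 percentile on hypoxia 1 to the 3.88 percentile on hypoxia 4. On those 5 arrays its signal spanned 6.01-fold, and on hypoxia 4 it had only an upper bound.

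MB encodes myoglobin, the oxygen-binding haem protein of muscle. Probe A_70_P029987 had signals of 12.8, 36.7, 197 and 15.2 in normoxia and 21.6, 20.8, 251 and 56.3 in hypoxia. Probe A_70_P029986 had signals of 24.3, 27.8, 153 and 11.2 in normoxia and 4.67, 10.9, 169 and 51.7 in hypoxia. Both were brightest on hypoxia 3 and normoxia 3, and both were well above background on normoxia 2 and hypoxia 4, where SCD and MYH1 were not. The first probe kept to a rank between the 20.5 and the 42.0 percentile, with its highest rank on hypoxia 4.

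ALB is serum albumin, the main carrier protein of plasma. Probe A_70_P051002 had signals of 103, 5.63, 463 and 23.1 in normoxia and 54.4, 6.28, 326 and 17.6 in hypoxia, and cleared the background on 4 arrays, numbers 1 and 3 of each group. Its rank ran from the 71.3 percentile on normoxia 1 to the 11.6 percentile on normoxia 2. The other albumin probe, A_70_P051001, was printed in 5 spots and was well above background on none of the 8 arrays, with signals between 4.06 and 7.51. The pair of probes thus disagreed on the 4 arrays where the first was bright.

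AHSG encodes fetuin-A, a plasma glycoprotein abundant before birth that holds calcium phosphate in solution. Probe A_70_P039677 had signals of 24.5, 113, 29.6 and 5.91 in normoxia and 30.5, 24.2, 774 and 8.62 in hypoxia. Its rank was highest on hypoxia 3, at the 65.9 percentile, and next on normoxia 2, at the 54.1 percentile, while on the scaled levels normoxia 2, at -2.41, came after hypoxia 3, hypoxia 1 and normoxia 1, at -0.67, -1.66 and -2.34. It was not well above background on normoxia 3, 1 of the 2 arrays where SCD was brightest. The second probe, A_70_P039676, was well above background on hypoxia 3 only, where it read 369. Both fetuin probes were highest on hypoxia 3.

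TTR is transthyretin, which carries thyroid hormone and retinol-binding protein and is also made by the choroid plexus. Its signals were 198, 144, 666 and 201 in normoxia and 77.5, 181, 1304 and 253 in hypoxia. It was the only gene of the 7 well above background on all 8 arrays, and its rank stayed between the 56.9 and the 81.9 percentile. The log2 levels were 0.67, -2.05, -1.04 and -0.96 in normoxia and -0.32, -0.92, 0.09 and -1.77 in hypoxia, with the extremes, normoxia 1 and normoxia 2, in 1 group.

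**Figure D1:**
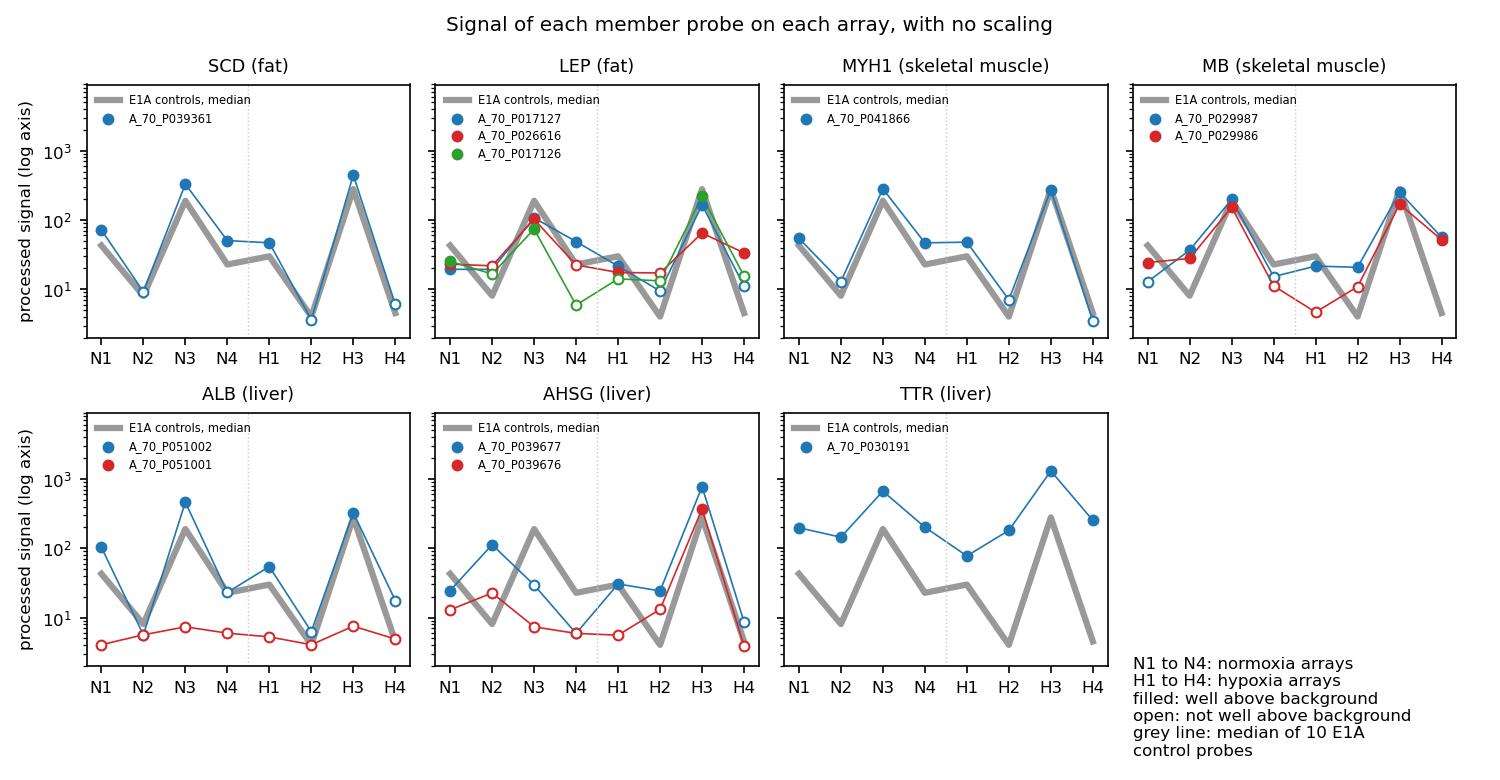
Processed signal (log axis, no scaling between arrays) of each of the 12 probes on normoxia arrays N1 to N4 and hypoxia arrays H1 to H4, with filled points where the probe was well above background and the median of the 10 E1A control probes as a grey line in each panel. SCD and MYH1 lie along the grey line, ALB A_70_P051002 lies near it, and TTR lies above it on all 8 arrays. On N2, H2 and H4 the grey line lies near the floor. Open points there reach up to 22.6, for AHSG A_70_P039676 on N2.

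Which of these signals rose together was described by the root mean square difference of log2 levels over the arrays, after each probe was centred on its own mean; a value of 0 means the same profile. It was taken over all 8 arrays and again, as an alternative added after the data were seen, over the 4 arrays on which at least 5 of the 10 control probes were well above background (normoxia 1 and 3, hypoxia 1 and 3). Over 8 arrays, with the brightest kept probe by mean level for each gene, the closest of the 21 pairs was SCD with MYH1, a fat and a muscle gene, at 0.55. SCD with ALB stood at 0.82 and MYH1 with ALB at 1.06. On normoxia 2 and on numbers 2 and 4 of the hypoxia group none of the 3 was well above background. What they shared over 8 arrays was thus in large part where they were read at all. Not all of these values lay at the floor: ALB read 17.6 on hypoxia 4 and MYH1 12.9 on normoxia 2. The negative control medians there were 3.61 and 5.63. LEP with TTR stood at 0.59, MB with TTR at 0.81 and LEP with MB at 0.82.

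Over the 4 arrays the differences were smaller, and the sets were less distinct. SCD with MYH1 stood at 0.27, MYH1 with ALB at 0.31 and SCD with ALB at 0.39, but LEP A_70_P026616 with ALB stood at 0.26, and SCD with TTR at 0.33. AHSG A_70_P039677 was the gene apart on these arrays, at 1.45 to 2.01 from every other kept probe. The 4 arrays were picked by the controls, and not every probe was read on all of them. AHSG A_70_P039677 was not well above background on normoxia 3, MB A_70_P029987 on normoxia 1 and MB A_70_P029986 on hypoxia 1. Their distances include those readings.

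Genes of the same tissue were not the closest pairs over 8 arrays. SCD and LEP A_70_P026616 differed by 1.88, MYH1 and MB by 1.91, ALB and TTR by 1.70, AHSG and TTR by 1.76, and ALB and AHSG, both secreted by hepatocytes, by 2.48. The value for the fat genes depended on the LEP probe, since SCD with LEP A_70_P017127 was at 1.24 over 8 arrays and at 0.28 over the 4, where SCD with A_70_P026616 was at 0.53. ALB and AHSG stayed apart over the 4 arrays, at 1.90, and MYH1 and MB were at 0.74. Probes of a single gene differed over 8 arrays by 0.81 for MB, 0.78 for AHSG, 0.90 to 1.11 for the 3 LEP pairs and 2.09 for ALB, with at least 1 probe of each pair not above background on some arrays.

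SCD had the profile of the median of the control probes, and MYH1 and ALB were near it. The control probes did not all share that profile. On normoxia 2, hypoxia 2 and hypoxia 4, E1A_r60_a22 read 73.3, 49.0 and 111, and E1A_r60_a20 read 34.0, 18.7 and 43.2. SCD read 9.23, 3.65 and 6.05 there. Over 8 arrays the difference from the E1A median was 0.37 for SCD, 0.44 for MYH1 and 0.75 for ALB A_70_P051002. It was 1.02 for LEP A_70_P017127, 1.58 for TTR, 1.62 for LEP A_70_P026616, 1.72 and 1.83 for MB and 2.07 for AHSG A_70_P039677. Over the 11211 probes kept for testing the median was 2.20, and 1326 of them (11.8%) lay under 1. Of the kept probes, 1.52% were as near to the controls as SCD or nearer, 2.60% as MYH1 and 8.43% as ALB. These values include the 3 arrays on which SCD, MYH1 and ALB were not well above background and the control median was near the floor.

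Over the 4 arrays with readable controls, SCD stayed the nearest of the 12 probes, at 0.058, and 0.232% of kept probes were as near or nearer. MYH1 was at 0.27, with 11.2% of kept probes as near, and ALB A_70_P051002 at 0.43, with 29.4%, against a median of 0.58 over all kept probes. LEP A_70_P017127 was at 0.24 (8.59% as near) and TTR at 0.35 (19.3%), while 97.5% of kept probes were as near as AHSG A_70_P039677. In distance, MYH1 and ALB were nearer to the controls over the 4 arrays than over 8. Among kept probes they stood out less, so that standing over 8 arrays rested in part on the arrays left out. One of these was normoxia 4, where MYH1 was well above background. SCD was nearer in both respects. Scaling of whole arrays leaves the distance unchanged, since it shifts gene and control alike.

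The same comparison can be read array by array as ratios of signals, which restate the distances and add no separate support. SCD over the E1A median was 1.68, 1.74, 1.57 and 1.60 on normoxia 1, normoxia 3, hypoxia 1 and hypoxia 3, while its signal spanned 9.52-fold over these arrays and the E1A median 9.31-fold. On normoxia 4, where 4 of 10 control probes were well above background, the ratio was 2.21. MYH1 over the controls ran from 0.981 to 1.60 on the 4 arrays, ALB A_70_P051002 from 1.17 to 2.45, LEP A_70_P017127 from 0.454 to 0.722 and TTR from 2.59 to 4.69.

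The genes differed where the median of the controls was near the floor. On normoxia 2, hypoxia 2 and hypoxia 4 TTR was well above background, with signals of 144, 181 and 253, and MB A_70_P029987 was too, with 36.7, 20.8 and 56.3, while SCD, MYH1 and ALB were not. AHSG A_70_P039677 cleared the background on both arrays of number 2 and not on normoxia 3, where the controls were bright. The part of the control signal, or of what it stands for, in the levels of SCD, MYH1 and ALB was not tested.

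**Figure D2:**
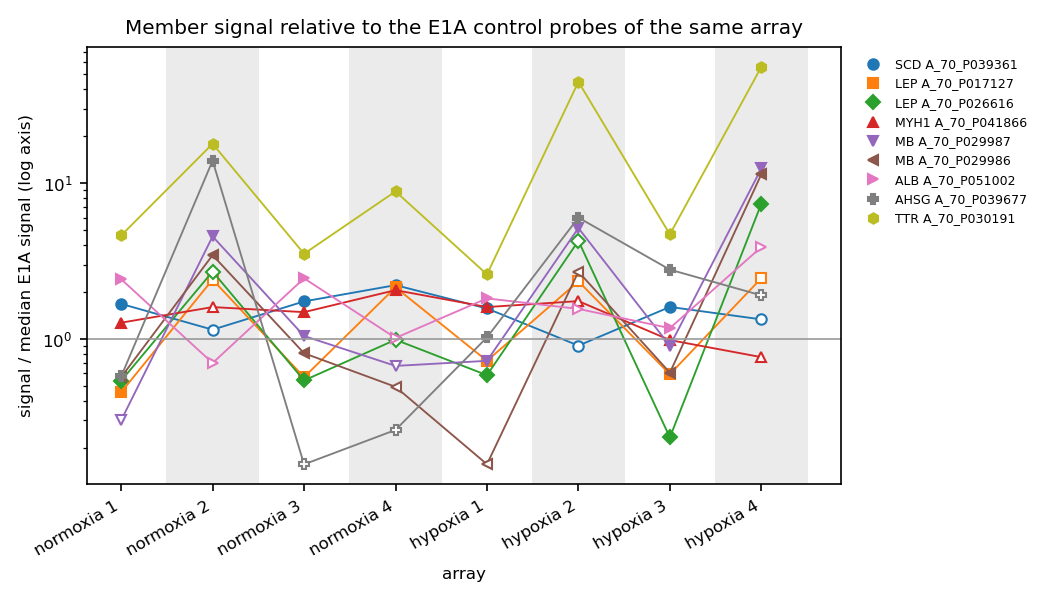
Signal of the 9 probes kept for testing divided by the median signal of the E1A control probes of the same array (log axis), by array. Open points are not well above background, thin lines only link points of a probe, and grey bands mark arrays with under 5 of 10 control probes well above background, where ratios are taken against a value near the floor. Outside the bands SCD lies between 1.57 and 1.74.

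**Figure D3:**
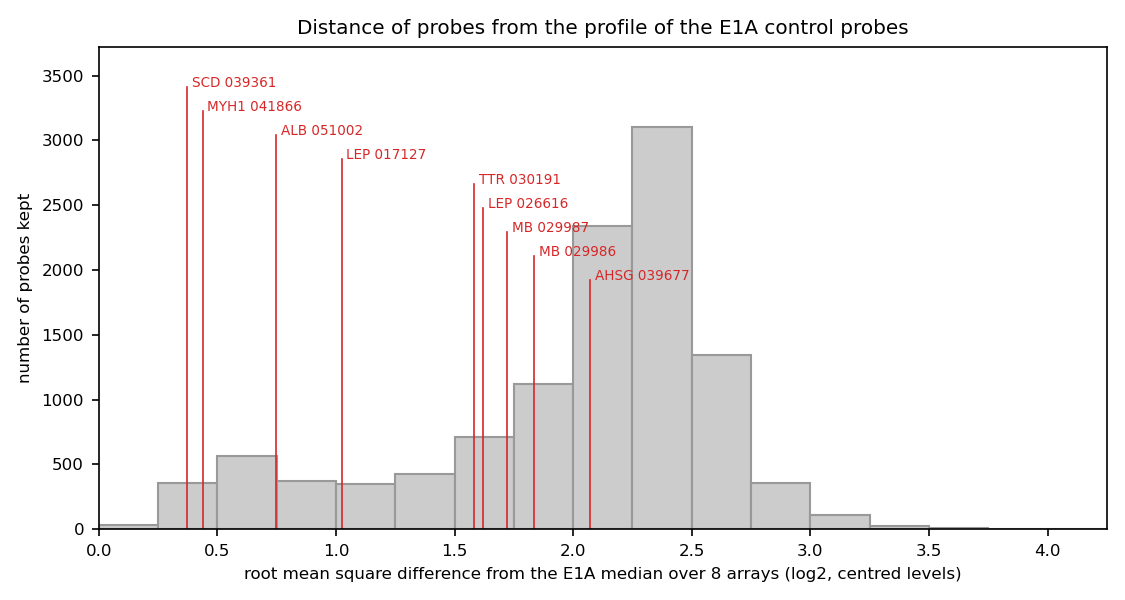
Number of kept probes (bars, 11211 in all) by the root mean square difference of their centred log2 levels from the E1A median, with the 9 kept probes of the 7 genes as red lines. SCD, MYH1 and ALB A_70_P051002 lie in the small group of probes at the left, and AHSG A_70_P039677 lies at 2.07, near the median of 2.20. The measure includes the 3 arrays where SCD, MYH1 and ALB were not well above background and the control median was near the floor.

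Arrays with high and low SCD, MYH1 and ALB shared a slide. Normoxia 1, hypoxia 1, hypoxia 2 and hypoxia 3 shared slide 1, and within it SCD had log2 levels of -0.79, -1.05 and -1.46 on the others against -6.55 on hypoxia 2. MYH1 stood at -1.19, -1.02 and -2.17 against -5.60 on hypoxia 2, and ALB at -0.26, -0.83 and -1.92 against -5.77. Slide 2 held normoxia 2 and hypoxia 4, both low for these 3 genes, and slide 3 held normoxia 3 and normoxia 4, with SCD at -2.05 and -2.96. All 8 arrays were scanned on 1 day.

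On the scaled levels, the lowest of normoxia 1, normoxia 3, hypoxia 1 and hypoxia 3 lay above the highest of normoxia 2, hypoxia 2 and hypoxia 4 for 7 of the 12 probes: SCD, the 3 LEP probes, MYH1, MB A_70_P029987 and ALB A_70_P051002. The arrays were named from the profile of these genes, so the count is a description. Among the kept probes of the 7 genes 6 of 9 had this order, beside 27.5% of all kept probes. MB A_70_P029987 was not well above background on normoxia 1 but was on normoxia 2, hypoxia 2 and hypoxia 4. LEP A_70_P017126 was not well above background on hypoxia 1. With no scaling neither of these probes had the order, nor had LEP A_70_P026616. With quantile normalization, which gives every array the same distribution, the count was 3: SCD, MYH1 and ALB A_70_P051002. With each array centred on its control probes it was 1, SCD. On normoxia 2, hypoxia 2 and hypoxia 4 neither SCD nor the median of the controls rose clear of the floor. The centred SCD values there compare floor with floor.

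Among other named genes, those nearest in profile over the 8 arrays to each of the 7 came from many organs. Nearest to SCD were EP4d (0.17), BAC5, an antimicrobial peptide of neutrophils (0.24), and NHE3, a sodium-hydrogen exchanger of kidney and gut (0.28). Nearest to MYH1 were GHRH, the hypothalamic growth hormone-releasing hormone (0.35), LYZ, lysozyme (0.37), and PAG4, a placental glycoprotein (0.39). Near to ALB were SFTPB, a lung surfactant protein (0.45), and C5aR, a complement receptor (0.49). These distances include normoxia 2, hypoxia 2 and hypoxia 4, where SCD, MYH1 and ALB were not well above background. BAC5, NHE3, PAG4 and C5aR stood at -6.73 on normoxia 2 and -6.55 on hypoxia 2, the lowest values of those arrays. Shared floor values count as likeness in this measure.

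The other genes had other neighbours. LEP lay nearest to SST1 (0.28), the copper transporter ATP7B (0.28) and the cytokine TNF (0.31). MB lay nearest to the cell cycle inhibitor CDKN1B (0.34), the folate enzyme SHMT1 (0.37) and the cytokine receptor chain IL13RA1 (0.38). TTR lay nearest to the channel kinase TRPM7 (0.35), VHNF1 (0.40) and UNC (0.41). AHSG had no near neighbour: its closest was SERPINA1, the liver's antitrypsin, at 1.08, then the lymphocyte proteins CD80 (1.16) and CD247 (1.35). SERPINA1 was at -2.76 on normoxia 2 and -7.54 on normoxia 3, as AHSG was at -2.41 and -5.53, but on hypoxia 3 it was at -3.35 against -0.67 for AHSG.

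Other genes of the 3 tissues were taken from lists of genes known from each and counted by whether they lay within 1 of the controls over 8 arrays, as 11.8% of all kept probes did. This distance includes normoxia 2, hypoxia 2 and hypoxia 4, so a gene not read there can lie near the controls through the floor alone. The share is not matched for dimness, since 7442 of the 11211 kept probes were well above background on all 8 arrays. Of 5 other fat genes kept, 1 lay within 1 of the controls: UCP1, the heat-producing protein of brown fat, at 0.45, with levels from -0.92 on normoxia 1 to -7.99 on hypoxia 4. PPARG, the master regulator of adipocytes, the fatty acid carrier FABP4 and the lipid droplet protein PLIN1 were well above background on all 8 arrays and lay at 1.73, 1.72 and 1.12. PPARG averaged -1.27 and FABP4 -1.88, above SCD and LEP on this relative scale, where levels of different probes are not comparable amounts of RNA. The summed level of the 7 kept fat genes ran from -0.34 to 1.73 on normoxia arrays and from -1.94 to 1.71 on hypoxia arrays.

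Of 6 other skeletal muscle genes kept, 3 lay within 1 of the controls, among them MSTN, the inhibitor of muscle growth, at 0.22. PYGM, muscle glycogen phosphorylase, instead stayed between 0.15 and 0.52 on all 8 arrays, and ENO3, muscle enolase, between -2.12 and -0.41. The troponin TNNC2 lay at 1.76 from the controls and was well above background on all 8 arrays. The summed level of the 8 kept muscle genes ran from 0.83 to 1.90 on normoxia and from 0.97 to 1.84 on hypoxia arrays. MYH7, MYOD1 and MYF5 did not pass the filter on dim probes, and no gene of the heart muscle list was named on the array.

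Of 6 other liver genes kept, 2 lay within 1 of the controls: SERPINC1, antithrombin, and the clotting factor F9, each at 0.70. TF, the iron carrier transferrin, stayed between 0.65 and 1.17 on all 8 arrays. APOA1, the main protein of high-density lipoprotein, was high on 6 arrays, between 1.08 and 1.97, and low on normoxia 4 and hypoxia 4, at -0.65 and -1.57, an order unlike that of ALB or TTR. The summed level of the 9 kept liver genes ran from 1.91 to 3.21 on normoxia and from 1.43 to 2.89 on hypoxia arrays.

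Genes of further organs and of blood were read the same way. Of 21 kept genes known from other organs, 10 lay within 1 of the controls, beside 11.8% of all kept probes. Each of these 10 was well above background on only 4 to 6 arrays, so the count reflects in part where they were read. The brightest were not among them: LHB, a pituitary hormone subunit, at 2.44, and the milk protein CSN2 at 2.59. Of 3 erythroid genes 1 lay within 1 of the controls, of 4 endothelial genes 1, and of 3 smooth muscle genes none. HBB, the beta-globin of red cells, averaged -0.51 and the globin chaperone AHSP -2.71, and the summed erythroid level ran from -0.89 to 1.20 on normoxia and from -0.25 to 1.12 on hypoxia arrays. NOS3, the endothelial nitric oxide synthase, averaged -0.92 and KDR, a VEGF receptor, -1.93. MYL6 and CNN1 lay at 2.74 and 3.04 from the controls and were lowest on hypoxia 1, at 7.29 and 4.99. The part of blood, fat, muscle or liver cells in the levels of the 7 genes was not tested.

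The contrast of the labels, hypoxia against normoxia, did not separate these genes. They were chosen from these same values for signals that rose together on arrays apart from the label. A lack of separation was thus favoured in advance, and the counts below carry that limit. For each kept probe a linear model was fitted with limma over all 11211 kept probes, and p-values were adjusted by the Benjamini-Hochberg method. Of the 9 probes of the 7 genes that passed the filter, 0 had an adjusted p under 0.05, as had 0 (0%) of all probes, with 0.998 as the smallest adjusted p. An unadjusted p under 0.05 was found for 0 of the 9 and for 412 (3.67%) of all. The 4 hypoxia and 4 normoxia values lay apart for 0 of the 9 and for 301 (2.68%) of all, with hypoxia higher for 194 (1.73%) and lower for 107 (0.954%).

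SCD had a log2 fold change, hypoxia minus normoxia, of -1.10 (SE 1.72), from a level of -4.06 ± 3.25 in hypoxia and -2.96 ± 2.23 in normoxia (SD, n = 4 each). MYH1 had -1.17 (SE 1.61), with -4.19 ± 3.18 in hypoxia and -3.02 ± 1.85 in normoxia. ALB A_70_P051002 had -0.37 (SE 1.67), with -3.53 ± 2.53 and -3.16 ± 2.86. In these 3 genes the spread within a group was larger than the difference between groups. Each was well above background on 2 of 4 hypoxia arrays. In normoxia SCD and MYH1 were so on 3 of 4 arrays and ALB on 2. The means, SDs and fold changes include the other arrays, so they depend in part on background readings.

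The LEP probes A_70_P017127 and A_70_P026616 had fold changes of -0.56 (SE 0.96) and -0.16 (SE 0.64). The MB probes differed in sign, with 0.58 (SE 0.60) for A_70_P029987 and -0.30 (SE 0.69) for A_70_P029986. AHSG A_70_P039677 had 0.88 (SE 1.45), with -3.20 ± 2.65 in hypoxia and -4.08 ± 1.98 in normoxia, and TTR had 0.11 (SE 0.63). Of these probes only TTR was well above background on every array, so the LEP, MB and AHSG fold changes include background readings. The limma adjusted p was 0.998 for each of the 9 probes, and the median fold change of all kept probes was -0.02.

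The 3 probes left out by the filter had log2 fold changes of 0.49 (LEP A_70_P017126), 0.81 (AHSG A_70_P039676) and -0.04 (ALB A_70_P051001) when no filter was applied. AHSG A_70_P039676 was not well above background on any normoxia array and on 1 of 4 hypoxia arrays, and against the normoxia floor it gave no fold above 1. ALB A_70_P051001 has only a bound in both groups.

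**Figure D4:**
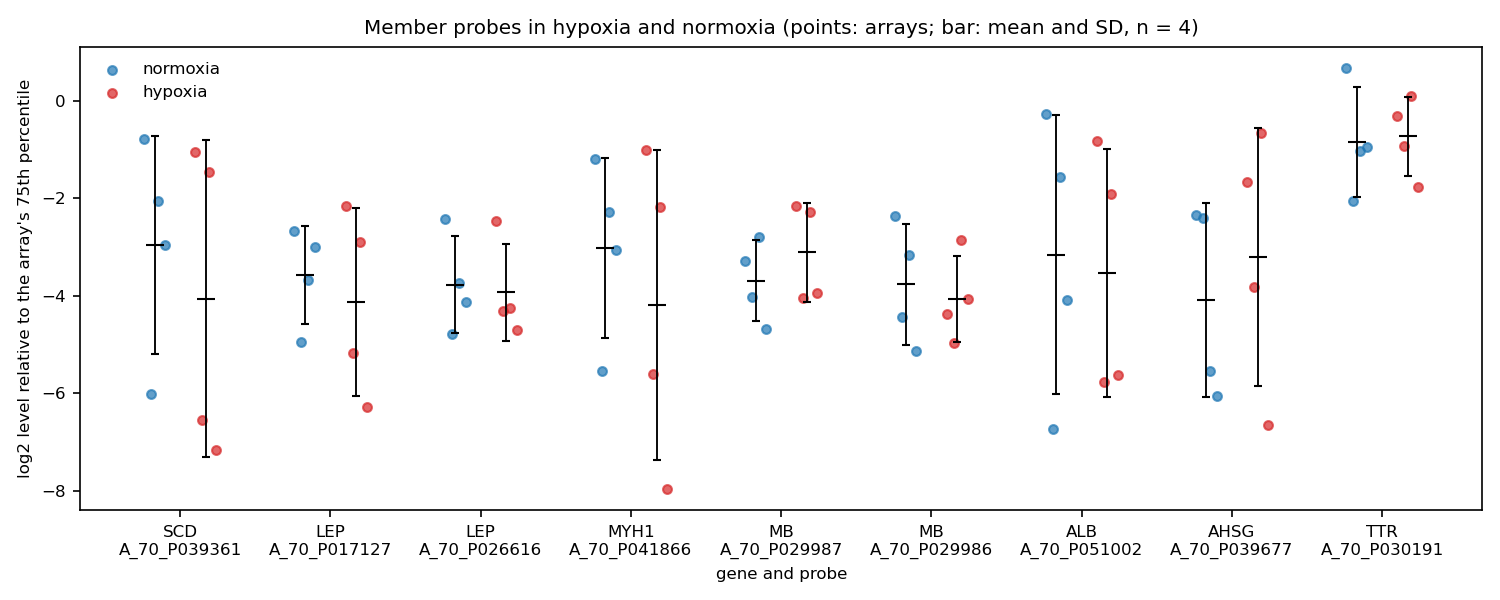
Log2 level relative to each array's 75th percentile for the 9 kept probes, with 1 point per array and the mean and SD (n = 4) of normoxia (blue) and hypoxia (red). The groups overlap for all 9 probes, and SCD, MYH1 and ALB A_70_P051002 have both high and low arrays in each group. Points include arrays where a probe was not well above background.

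The values of AHSG A_70_P039677, TTR, ALB A_70_P051002, LEP A_70_P026616 and MB A_70_P029986 changed sign between slides 1 and 2. Those of AHSG and TTR also changed sign when slide was added as a block. Single arrays decided several values. Within slide 1, AHSG A_70_P039677 was 0.29 higher in the 3 hypoxia arrays than on normoxia 1, and within slide 2 hypoxia 4 differed from normoxia 2 by -4.24. With slide as a block its fold change was -1.52. TTR was at -1.05 within slide 1, 0.28 within slide 2 and -0.52 with the block. SCD had -2.23 and -1.14 within the slides and -1.79 with the block, MYH1 -1.74, -2.43 and -2.01, and ALB -2.57, 1.12 and -1.10. LEP A_70_P026616 had -1.25, 0.09 and -0.71, LEP A_70_P017127 -0.74, -1.33 and -0.97, MB A_70_P029987 0.44, 0.09 and 0.30, and MB A_70_P029986 -1.71, 0.37 and -0.88. On slide 2, SCD, MYH1, ALB and LEP A_70_P017127 were well above background on neither array, and AHSG was not on hypoxia 4. Slide 3 held normoxia arrays only and gives no such value.

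Arrays of the same number showed where the values came from. SCD, in hypoxia minus normoxia, was -0.25, -0.53 and 0.59 for numbers 1 to 3 and -4.20 for number 4. MYH1 was 0.18, -0.07 and 0.11 for numbers 1 to 3 and -4.90 for number 4. For AHSG A_70_P039677 the third pair gave 4.87 and the others 0.68, -1.41 and -0.60. SCD and MYH1 were not well above background on hypoxia 4, nor AHSG on normoxia 3. The large values of these pairs thus set a read value against a background reading. SCD and MYH1 for number 2, and AHSG for number 4, were read on neither array. Without hypoxia 4 the fold change was 0.09 for MYH1 and -0.07 for SCD, and without hypoxia 3 it was 0.04 for AHSG A_70_P039677. ALB A_70_P051002 turned positive without normoxia 1 (0.59), normoxia 3 (0.16), hypoxia 2 (0.37) or hypoxia 4 (0.32). LEP A_70_P017127 did so without hypoxia 4 (0.16), LEP A_70_P026616 without normoxia 1 (0.28) or hypoxia 4 (0.09), and MB A_70_P029986 without normoxia 1 (0.17) or hypoxia 2 (0.0014). TTR turned negative without normoxia 2 (-0.29), hypoxia 1 (-0.02) or hypoxia 3 (-0.16).

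Of the genes in the 3 lists, the members included, the counts by direction were as follows, with 0 passing the test in either direction. Of 7 fat genes 1 had a positive and 6 a negative fold change (median -0.28), of 8 muscle genes 2 and 6 (median -0.37) and of 9 liver genes 3 and 6 (median -0.37). Over all kept probes 48.3% were positive. The 3 erythroid genes had a median of 0.16 (2 positive, 1 negative) and the 21 of other organs -0.40 (4 and 17). The 3 smooth muscle genes had -0.60 (0 and 3) and the 4 endothelial genes 0.96 (3 and 1). In these lists too, 0 genes passed the test.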

How the data were processed

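Total RNA of 8 arteries was read on 8 single-colour arrays. The deposited scanner files hold the intensity of each spot on array design 019921, read by Agilent Feature Extraction 9.5.3.1, per the file headers. The processed intensity is background-subtracted and detrended with no scaling between arrays, per the file headers. The ratio in the authors' matrix of the series was, judged by its values, the processed intensity divided by the 75th percentile of the array. Its column medians were 0.328, 0.131, 0.228 and 0.137 (normoxia 1 to 4), then 0.326, 0.158, 0.308 and 0.141 (hypoxia 1 to 4). The reason for this scale is not given in the sources used here.

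Of 15744 spots, 536 controls and all outlier flags were left out, and 72 probes without a value on every array were dropped. Levels are log2 processed intensity minus the 75th percentile of the array, as a mean over replicate spots. The filter asked for a signal well above background on at least 4 of 8 arrays and left 11211 probes. Names came from the files, matched to RefSeq genes of assembly ARS-UI_Ramb_v3.0 for symbols only, and 1416 probes had a name, for 822 genes.

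The linear models were those of limma (version 3.58.1; lmFit and eBayes), run in R 4.3.3, and files were read with the data.table package (version 1.17.8). In simulated data of 11211 probes with 200 changed, this comparison recovered 0% of log2 changes of 1, 35.5% of 2 and 67.5% of 3. The genes, lists and tests were chosen with earlier results of these data known. The text names every probe of the 7 genes, the 4 brightest other genes of the fat, muscle and liver lists, the 2 brightest of the others, and the 3 genes nearest to each of the 7, of which 1 is not reported here. Genes named as absent after filtering are outside that rule.

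Alternatives were other scalings, background corrections and filters, blocks for slide and replicate number, array weights, the authors' ratios and leaving out each array. Centring on the E1A probes, and profile differences over the 4 arrays with readable controls, were added after the data were seen. Same-numbered arrays deviated together from their group means: the correlations over probes were 0.82 (number 1), 0.73 (number 2), 0.58 (number 3) and 0.43 (number 4). The number was therefore used as a block among the alternatives, and the main model did not use it. Such a pairing rests on the values alone, as the labels leave the meaning of a number unsaid. The correlation of normoxia 2 with hypoxia 4, on the same slide, was higher (0.80) than with hypoxia 2. Normoxia 1 with hypoxia 3, also on the same slide, was at 0.58.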

Additional observations from a re-analysis of the deposited data

Results flagged for a closer look

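The E1A control probes, which the comparison of the groups did not use, gave a median processed signal of 278 on hypoxia 3, against a median of 5.11 for the negative controls of that array. They were well above background for 10 of 10 probes there, for 9 on normoxia 3, 8 on normoxia 1, 7 on hypoxia 1, 4 on normoxia 4, and 2 each on normoxia 2, hypoxia 2 and hypoxia 4. No value of the 12 probes stood apart from the rest of its group by Dixon's criterion among 24 groups of 4 arrays.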

How the results depend on the processing

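Under all 20 alternatives 0 probes passed the adjusted threshold, members included, and no setting changed a call. With the replicate number as a block, which takes the pairing into account, 0 probes passed (smallest adjusted p 0.318), 1331 had an unadjusted p under 0.05, and the members' adjusted p ran from 0.432 to 0.923. The 7 probes whose levels ordered the arrays became 4 with no scaling, 4 with median scaling, 3 with quantile normalization, 0 with normexp and 1 with centring on the E1A controls. Fold changes changed sign as follows, and the cause was not tested. Centring on the E1A controls, which moved the median of all probes to 0.76, gave 0.22 for LEP A_70_P017127, 0.62 for LEP A_70_P026616, 0.48 for MB A_70_P029986 and 0.41 for ALB. Normexp (median of all -0.31) gave -0.56 for MB A_70_P029987, -0.050 for AHSG and -0.22 for TTR. Median scaling (median of all -0.20) gave -0.065 for TTR, and the slide block gave -1.52 for AHSG and -0.52 for TTR. Leaving out 1 array in turn gave ranges of -2.12 to -0.07 for SCD, -1.21 to 0.16 and -0.65 to 0.28 for LEP A_70_P017127 and A_70_P026616, -2.23 to 0.090 for MYH1, 0.26 to 0.90 and -0.75 to 0.17 for MB A_70_P029987 and A_70_P029986, -1.56 to 0.59 for ALB, 0.04 to 2.03 for AHSG and -0.29 to 0.62 for TTR. The probes with an unadjusted p under 0.05 ranged from 173 to 614 on leaving out 1 array. Levels on arrays where a probe was not well above background have no order.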
